A study of Mus musculus with 26 samples.

Results

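Granulocyte-macrophage progenitors (GMPs) of mice without Prss57, the gene of neutrophil serine protease 4 (NSP4), were compared with common myeloid progenitors (CMPs) of mice of the same genotype. The libraries were chosen by their labels alone, 4 of Prss57-/- GMPs and 4 of Prss57-/- CMPs, which are 8 of the 26 RNA sequencing libraries in the series, and every gene was tested. The comparison asks which differences between the progenitors are present when Prss57 is missing, and the same comparison in 4 wild-type GMP and 4 wild-type CMP libraries was the reference for genotype. All 16 libraries were from bone marrow of untreated female mice and were sequenced in 1 run, and the labels do not give the age of these mice. According to the methods of the study, the deletion removes exon 2, was made in C57BL/6N embryonic stem cells and is carried in the germline, so that every cell of these mice, and both groups compared, lack the exon. Both progenitors were sorted as Lin-, SCA-1-, CD117+ and CD34+ cells, GMPs with high and CMPs with low CD16/32. No label says whether animals were pooled for a library, or whether a GMP and a CMP library of the same number came from 1 mouse. The p-values therefore measure the spread between these libraries. They are named GMP 1 to 4 and CMP 1 to 4, and values of several libraries are listed in that order.

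CMPs and GMPs are successive stages of blood formation in the bone marrow. CMPs can give rise to erythrocytes and megakaryocytes as well as to granulocytes and monocytes, whereas GMPs are largely committed to neutrophils, monocytes, eosinophils, basophils and mast cells. At the GMP stage the cells begin to make the proteins of the primary (azurophilic) granule, among them myeloperoxidase and the neutrophil serine proteases, of which NSP4 is one. Transcription factors of the C/EBP family, PU.1 and GFI1 act on the granulocyte and monocyte side, and GATA1, its cofactor FOG1 and KLF1 on the erythroid and megakaryocytic side.

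The Prss57-/- libraries held 32078404 to 53264762 reads on genes. CMP 2 stood apart from the other 7. Its normalized RPKM (the read count divided by gene length and a size factor, the unit of every level below) summed to 785333, against 336085 to 494881 in the others. Ribosomal protein genes held 8.49% of its reads, against 2.60%, 4.41% and 5.05% in CMP 1, 3 and 4 and 1.81% to 3.40% in the GMPs. The slope of log2 level on log2 gene length, which measures how far a library favors long over short genes, was -0.41 in CMP 2, against -0.14 to 0.18 in the other CMPs and -0.04 to 0.23 in the GMPs. The part of these library differences in the results was not tested, and results are given without CMP 2 where they changed.

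**Figure D1:**
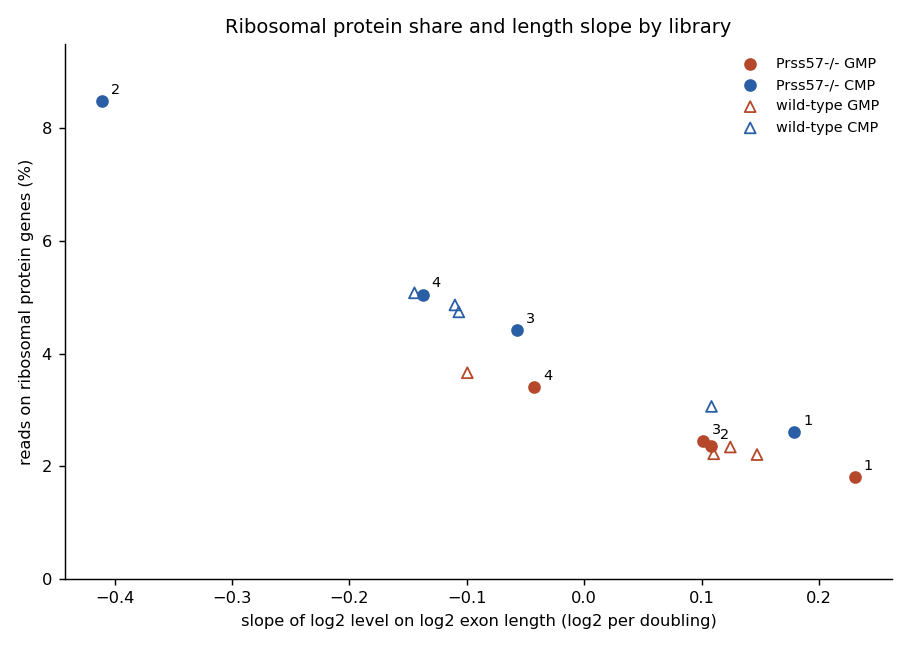
Each point is 1 library, filled circles numbered by library for Prss57-/- and open triangles for wild type, with its slope of log2 level on log2 gene length on the x axis and the percent of its reads on ribosomal protein genes on the y axis, by group. CMP 2 lies apart at a slope of -0.41 and a share of 8.49%.

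The genes of the sort markers followed the gates. Fcgr3, a CD16/32 gene, was at 262, 294, 292 and 355 in the GMP libraries and at 11.7, 26.5, 43.0 and 58.8 in the CMP libraries. Its relative Fcgr2b was at 19.5 to 23.3 in GMPs and 6.15 to 8.24 in CMPs. The sort selected on these proteins, so that their difference is no finding, but the Fcgr3 level varied 5-fold among the CMP libraries, lowest in CMP 1 and highest in CMP 4. Kit, the CD117 gene, was at 43.3 to 68.3 in GMPs and 35.5 to 76.7 in CMPs, Cd34 at 228 to 269 and 290.4 to 322, and Ly6a, a SCA-1 gene, at 1.02 to 2.40 and 2.56 to 3.80. The lineage genes Cd3e, Cd8a and Cd79a stayed at or under 0.336 in every library, whereas Cd79b and Ighm, also genes of B cells, were at 33.5 to 50.9 and 117 to 170.3 in GMPs and at 28.0 to 49.7 and 85.1 to 119 in CMPs. RNA of a sorted population does not separate the number of cells of a type from the RNA per cell, and fewer cells of a type and less RNA per cell cannot be told apart in any result below.

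Reads on Prss57 were close to absent from both groups. The GMP libraries held 25, 6, 25 and 18 reads on the gene and each CMP library held 1 read, at or under the floor of 3 reads per library. Wild-type GMP libraries held 18064 to 26556 reads and wild-type CMP libraries 2261 to 3926. Relative to depth, the 74 reads of the Prss57-/- GMPs and the 4 reads of the CMPs gave a ratio of 17.96 (exact 95% interval 6.72 to 67.6, counting error only). The residual reads were thus also more frequent in GMPs, as in wild type, at 1099-fold less than in wild-type GMPs (875.6 to 1400.3). Prss57 did not reach the count needed for the test in the Prss57-/- libraries.

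Without Prss57, GMPs and CMPs differed in 1259 genes, with the adjusted p below 0.01 and a change of 2-fold or more. GMPs had more RNA for granule proteins of neutrophils, eosinophils and basophils, for the receptors of GM-CSF and G-CSF and for C/EBP transcription factors. CMPs had more RNA for erythrocyte and platelet proteins, for GATA1 and its partners, and for stem cell genes such as Mycn and Slamf1. Of 14959 genes tested, edgeR's quasi-likelihood test called 604 higher (4.04%) and 655 lower (4.38%) in GMPs than in CMPs, 8.42% in both directions. The groups did not overlap for a larger share of genes, with all GMP libraries above all CMP libraries for 2165 genes (14.5%) and below them for 2095 (14.0%). The median log2 fold change over all genes was -0.03. Without CMP 2, 658 genes were called higher and 687 lower, of which 556 and 613 were among the calls above. In the gene lists below, its removal added or took away at most 1 call in each direction. Without CMP 1, in which Fcgr3 was lowest, 1125 were called higher and 1141 lower, and these held 593 and 634 of the calls above. The counts fell to 393 and 414 without GMP 2, to 377 and 408 without GMP 3 and to 383 and 446 without CMP 3. Scaling by library size in place of TMM gave 408 higher and 701 lower.

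**Figure D2:**
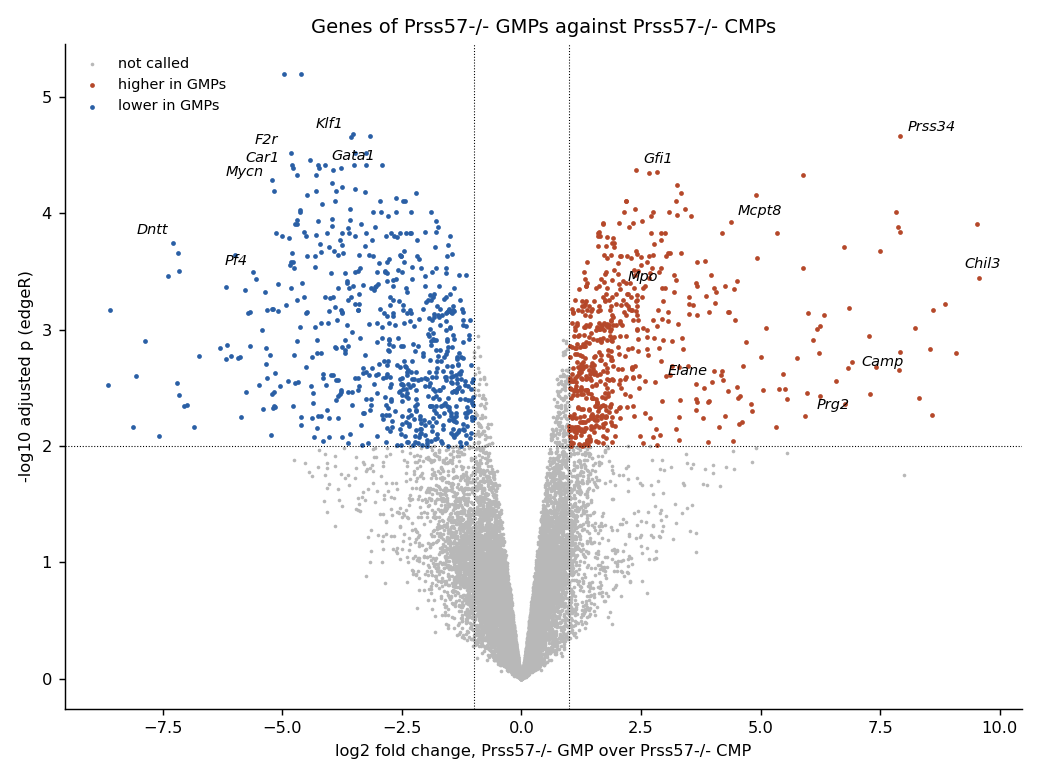
Each point is a gene, with the log2 fold change of Prss57-/- GMPs over Prss57-/- CMPs on the x axis and -log10 of the edgeR adjusted p on the y axis, and called genes are colored by direction. The 604 genes higher in GMPs lie to the right and the 655 lower ones to the left, with Prss34 at 7.92, Ngp at 7.50 and Pf4 at -5.61.

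Called protein-coding genes without overlap were ranked if their mean was at least 20 normalized RPKM in the group where they were higher. Predicted genes (Gm and Rik names) were left out. The 15 largest rises were mostly in granule and secreted proteins. They were Chil3, Prss34, Ngp, Camp, Epx, S100a9, Prg3, Prg2, Ear6, Fcnb, Lcn2, S100a8, Mcpt8, C3 and Chst13. C3, the central complement component, was at 57.0, 49.9, 52.4 and 54.7 in GMPs and 3.66, 0.936, 3.76 and 5.07 in CMPs, 16.3-fold higher. Chst13, a chondroitin sulfotransferase of the Golgi, was at 28.8 to 34.7 in GMPs and 1.04 to 4.03 in CMPs (log2 fold change 3.84, standard error 0.39, edgeR adjusted p = 0.000259). The largest falls included Pf4, Tspo2, F2r, Car1, Aqp1, Prss50, Treml1, Ctla2a, Aldh1a1, Mfsd2b, Ces2g, Wfdc17, Pdzk1ip1 and Slc38a5. Of these, Mfsd2b transports sphingosine 1-phosphate out of erythrocytes and platelets and was at 1.43 to 3.37 in GMPs and 49.9 to 71.0 in CMPs (log2 fold change -4.49, edgeR adjusted p = 7.03e-05). Aldh1a1, which makes retinoic acid, was at 0.374 to 1.50 in GMPs and 13.9 to 32.9 in CMPs (log2 fold change -4.49, edgeR adjusted p = 0.000234). Ctla2a, an inhibitor of cathepsin L, was at 4.30, 5.05, 4.04 and 5.44 in GMPs and 40.7, 263, 69.2 and 71.7 in CMPs, 22.5-fold lower in GMPs. Wfdc17 was at 1.49 to 3.67 in GMPs and at 13.1, 129, 30.7 and 23.3 in CMPs. For Ctla2a and Wfdc17, CMP 2 was several times above the other CMPs, and all CMPs were above all GMPs. Without CMP 2 their log2 fold changes were -3.66 and -3.33 (edgeR adjusted p = 1.52e-05 and 0.000394). Wfdc17 lost its call without any 1 of GMP 1, GMP 2 or GMP 4 (highest edgeR adjusted p = 0.0148).

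**Figure D3:**
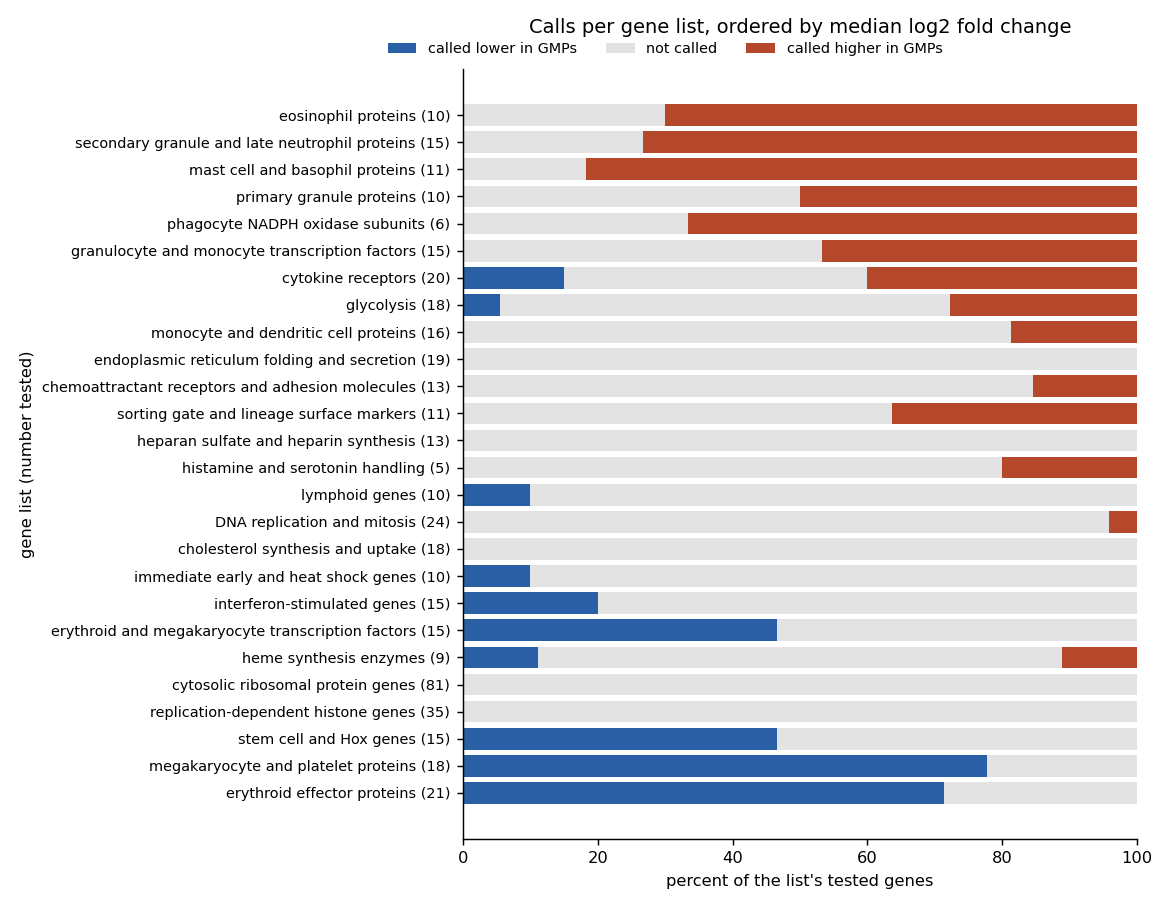
For each gene list, the bars give the percent of its tested genes called higher in GMPs, not called and called lower in GMPs, with the number tested beside the name and the lists ordered by median log2 fold change. Eosinophil, late neutrophil and mast cell lists are mostly higher, erythroid and megakaryocyte lists mostly lower, and the ribosomal protein, histone, cholesterol, endoplasmic reticulum and heparan sulfate lists hold no call.

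The promoters of 6 genes on which the next paragraphs turn are shown, 4 of primary granule proteins of GMPs, 1 of an erythroid receptor and 1 of a platelet glycoprotein, to show the letters of binding motifs at these genes. They are the 250 bases before the RefSeq start on GRCm38.p6, 5′ to 3′ on the strand of the gene, and were chosen after the matches were seen. Capitals mark GAGGAAG, the letters searched for PU.1, or AGATAA, those for GATA, and the reverse complements CTTCCTC and TTATCT.
Mpo (chr11:87793534-87793783, forward strand): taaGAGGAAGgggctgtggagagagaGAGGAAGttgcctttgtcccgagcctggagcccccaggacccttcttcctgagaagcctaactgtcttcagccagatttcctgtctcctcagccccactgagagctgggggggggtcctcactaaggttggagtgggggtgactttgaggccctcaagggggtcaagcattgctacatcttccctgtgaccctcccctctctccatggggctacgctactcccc
Elane (chr10:79886062-79886311, forward strand): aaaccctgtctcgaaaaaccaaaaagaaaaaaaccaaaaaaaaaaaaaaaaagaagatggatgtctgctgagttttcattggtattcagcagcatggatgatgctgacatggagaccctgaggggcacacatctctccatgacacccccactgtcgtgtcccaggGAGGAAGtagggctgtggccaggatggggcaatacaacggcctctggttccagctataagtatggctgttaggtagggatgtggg
Prtn3 (chr10:79879417-79879666, forward strand): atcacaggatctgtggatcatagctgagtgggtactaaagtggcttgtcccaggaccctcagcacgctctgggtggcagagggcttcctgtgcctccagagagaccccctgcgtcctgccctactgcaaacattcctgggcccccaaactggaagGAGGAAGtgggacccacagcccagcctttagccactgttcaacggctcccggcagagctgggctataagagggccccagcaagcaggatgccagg
Ctsg (chr14:56102575-56102824, reverse strand): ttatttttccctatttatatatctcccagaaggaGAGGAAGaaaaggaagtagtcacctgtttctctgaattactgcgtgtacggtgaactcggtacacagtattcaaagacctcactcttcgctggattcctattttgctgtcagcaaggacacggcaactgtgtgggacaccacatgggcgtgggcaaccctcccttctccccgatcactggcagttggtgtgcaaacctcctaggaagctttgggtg
Epor (chr9:21963577-21963826, reverse strand): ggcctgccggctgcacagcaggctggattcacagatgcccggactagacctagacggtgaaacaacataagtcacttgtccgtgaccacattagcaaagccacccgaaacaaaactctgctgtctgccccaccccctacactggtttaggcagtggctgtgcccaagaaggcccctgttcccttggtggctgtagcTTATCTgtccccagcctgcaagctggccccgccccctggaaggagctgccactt
Gp5 (chr16:30310782-30311031, reverse strand): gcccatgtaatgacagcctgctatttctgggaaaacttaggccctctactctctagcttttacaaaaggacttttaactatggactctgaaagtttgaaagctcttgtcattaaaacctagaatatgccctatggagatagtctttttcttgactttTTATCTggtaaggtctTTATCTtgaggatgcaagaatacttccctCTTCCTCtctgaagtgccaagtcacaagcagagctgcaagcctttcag

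The PU.1 letters began at base -85 in Elane, -95 in Prtn3, -216 in Ctsg and -247 and -224 in Mpo, counted back from the start. The GATA letters lay in reverse orientation from -54 to -49 in Epor, and from -93 to -88 and -77 to -72 in Gp5, which also held the PU.1 letters in reverse. Such matches are common. Over all 32851 RefSeq windows (250 bases before and 50 after a start), 13.6% held the PU.1 letters on either strand, 11.2% the GATA letters, 10.8% the C/EBP letters TTGCNNAA and 5.27% the RUNX letters TGTGGTT, and a window could hold several. Among the 593 windows that matched genes called higher in GMPs (447 of 604 genes), 18.0% held the PU.1, 14.0% the C/EBP, 8.94% the GATA and 5.23% the RUNX letters. Among the 622 windows of genes called lower (492 of 655 genes), the shares were 14.8%, 8.52%, 11.4% and 4.82%. Over the 12901 windows of tested genes they were 13.9%, 8.76%, 6.91% and 3.88%. A match is a run of letters and not a binding site, and these shares were not tested.

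Primary granule proteins, to which NSP4 itself belongs, were higher in Prss57-/- GMPs than in CMPs for 5 of the 10 genes measured, and none was lower. Mpo, the gene of myeloperoxidase, alone held 3.64% to 4.05% of all reads of the GMP libraries and 0.510% to 1.19% of those of the CMP libraries. It was at 11258, 11934, 11676 and 11533 in GMPs and at 2602, 2008, 3262 and 3499.5 in CMPs. The GMP libraries were nearly equal, and each was more than 3-fold above every CMP library (4.19-fold higher, log2 fold change 2.07, standard error 0.24, edgeR adjusted p = 0.000445). The other neutrophil serine proteases are encoded by Elane, Prtn3 and Ctsg. Elane was at 6245, 7729, 8140.3 and 10186 in GMPs and at 376, 982, 1247 and 1830.2 in CMPs. It was lowest in CMP 1 and highest in CMP 4, as Fcgr3 was, and the groups did not overlap (7.51-fold higher, log2 fold change 2.91, standard error 0.44, edgeR adjusted p = 0.00185). Prtn3 was at 4242, 5683, 6364 and 7973 in GMPs and at 922, 2342, 1829.5 and 2307 in CMPs, likewise without overlap and with CMP 1 lowest (3.40-fold higher, log2 fold change 1.76, standard error 0.32, edgeR adjusted p = 0.00489). Ctsg was at 3519, 4378, 4106 and 5404 in GMPs and at 822, 2369, 1553 and 1905 in CMPs. All GMPs lay above all CMPs, but Ctsg missed the threshold (log2 fold change 1.44, standard error 0.31, edgeR adjusted p = 0.0102), and it passed without CMP 1 or without CMP 2 (edgeR adjusted p = 0.00297 without CMP 2). Ms4a3, a membrane protein of granulocyte progenitors, was 5.09-fold higher in GMPs, at 1197 to 2224 against 93.5 to 437 (edgeR adjusted p = 0.00553). Cst7, the inhibitor cystatin F, was at 350.0 to 411 against 104 to 145 (log2 fold change 1.65, standard error 0.15, edgeR adjusted p = 0.000158).

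The 5 primary granule genes without a call were Ctsg, Ctsc, Srgn, Serpinb1a and Lyz2. Ctsc, which activates the serine proteases by removing a dipeptide, was at 22.4 to 28.6 in GMPs and 12.8 to 17.6 in CMPs, with an edgeR adjusted p of 0.00774 but less than a doubling (log2 fold change 0.78). Srgn, the serglycin core on which granule proteases and amines are packed, was at 775 to 1138 in GMPs and 351 to 1188 in CMPs, with overlap (log2 fold change 0.45, edgeR adjusted p = 0.307). Serpinb1a, an inhibitor of these proteases, was at 235 to 313 and 101 to 242. Lyz2, lysozyme, was at 206 to 390.4 and 130.3 to 493. The median log2 fold change of the list was 1.55, against -0.03 over all genes. Prtn3 lost its call without any 1 of GMP 2, GMP 3, GMP 4, CMP 3 or CMP 4 (highest edgeR adjusted p = 0.0197). Ms4a3 lost it without any 1 GMP library and without CMP 3 or CMP 4 (highest 0.0199 from edgeR).

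**Figure D4:**
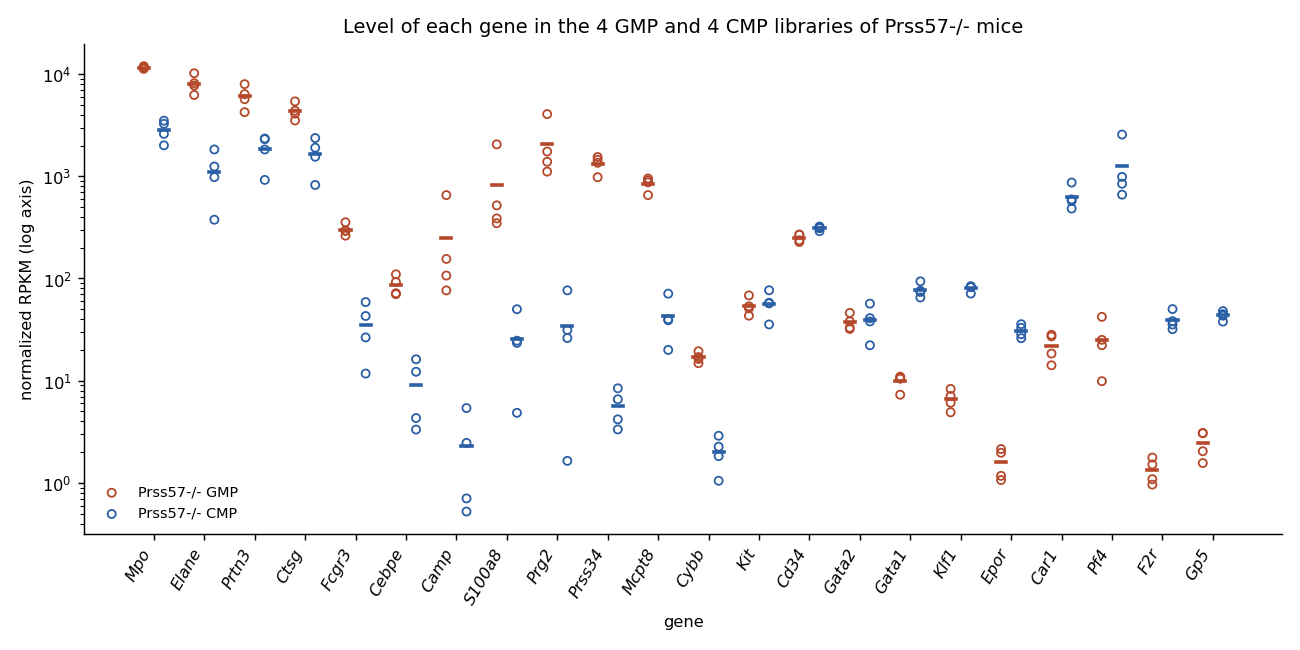
Each point is the level of a gene in 1 Prss57-/- library, in normalized RPKM on a log axis, with GMP and CMP libraries in different colors. Granule genes lie higher in all 4 GMP libraries and erythroid and megakaryocyte genes higher in all 4 CMP libraries, with GMP 4 highest for S100a8 and Camp and CMP 2 highest for Pf4.

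Genes of the secondary granule and of late neutrophils, which are made after the GMP stage in most accounts of neutrophil formation, were higher in GMPs as well. Of 15 tested, 11 were called higher in GMPs and none lower, with a median log2 fold change of 5.50. Ngp, the neutrophilic granule protein, was at 151, 67.0, 79.8 and 345 in GMPs and at 0.614, 0.641, 0.625 and 1.79 in CMPs (log2 fold change 7.50, standard error 0.73, edgeR adjusted p = 0.000212). Camp, the cathelicidin, was at 155, 76.5, 107 and 655 in GMPs and at 0.525, 5.40, 0.705 and 2.46 in CMPs (log2 fold change 6.91, standard error 1.05, edgeR adjusted p = 0.00191). GMP 4 was 3 or more times above the other GMP libraries in Camp, S100a8 and S100a9, and no CMP library reached the lowest GMP library. S100a8, 1 chain of calprotectin, was at 519, 347, 387 and 2054 in GMPs and at 4.85, 24.6, 23.4 and 50.1 in CMPs, and S100a9, the other chain, at 614, 319, 366 and 2064 and 4.31, 14.1, 7.14 and 25.7. S100a9 was 68.3-fold higher and S100a8 33.2-fold (edgeR adjusted p = 0.00123 and 0.00328). Ltf, lactoferrin, was at 7.58 to 37.1 in GMPs and 0.0436 to 0.149 in CMPs, and Lcn2, lipocalin 2, at 35.0 to 118 and 1.00 to 2.10 (edgeR adjusted p = 0.000131 and 0.000149). Chil3, a chitinase-like lectin, was at 11.6 to 63.8 in GMPs and had 12 reads in CMP 3 and 0 in the other CMP libraries. Mmp8, Mmp9, Ly6g and Retnlg, which mark later neutrophils, did not pass: Mmp9 was at 0.173 to 0.996 and 0.0385 to 0.116 (edgeR adjusted p = 0.0216), and Ly6g, the neutrophil surface marker, at 0.261 to 1.21 and 0 to 0.189.

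The summed level of the 15 genes ran from 1042 to 5653 in the GMP libraries, highest in GMP 4, and from 22.5 to 122.9 in the CMP libraries. Cells further along the neutrophil path were not counted in these libraries, and their part in the result was not tested. The surface gene Ly6g stayed at or under 1.21 in every library, with every GMP above every CMP. The lineage stain held an antibody to Gr-1, which covers the Ly6g protein, and the part of the sort in the low Ly6g level was not tested. S100a8, Fcnb and Itgb2l each lost their call without 1 library, S100a8 and Fcnb (a ficolin) without CMP 3 (edgeR adjusted p = 0.0159 and 0.0168) and Itgb2l, an integrin chain, without CMP 4 (0.011 from edgeR).

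Eosinophil granule genes were also higher in GMPs. Of 10 eosinophil genes tested, 7 were called higher and none lower, with a median log2 fold change of 5.96. Prg2, the major basic protein, was at 1388, 1112, 1747 and 4062 in GMPs and at 1.64, 26.2, 31.4 and 76.6 in CMPs (log2 fold change 5.98, standard error 1.03, edgeR adjusted p = 0.00349). Epx, eosinophil peroxidase, was at 80.4, 47.2, 94.9 and 179 and 0.0285, 0.384, 1.02 and 2.19 (log2 fold change 6.83, standard error 1.07, edgeR adjusted p = 0.00215). Both were highest in GMP 4 and, among CMPs, lowest in CMP 1 and highest in CMP 4, and neither overlapped between the groups. Prg3, a homolog of Prg2, was at 52.5 to 188 and 0.226 to 2.91, and Alox15, a lipoxygenase of eosinophils, at 3.07 to 5.13 and 0 to 0.0761 (edgeR adjusted p = 0.000723 and 0.000195). The ribonucleases Ear1, Ear2 and Ear6 are near-identical copies that share reads, so that their separate values are uncertain, with Ear6 at 13.3 to 124 in GMPs and 0.0162 to 1.95 in CMPs. Il5ra, the interleukin 5 receptor chain, was low in both, at 0.370 to 0.654 and 0.0385 to 0.132 (log2 fold change 2.59, edgeR adjusted p = 0.00278). The eosinophil surface genes did not pass: Siglecf was at 9.77 to 13.8 and 7.68 to 9.46, and Ccr3, the eotaxin receptor, at 0.0405 to 0.203 and 0.173 to 0.620. The summed level of the list was 1249 to 4625 in GMPs and 9.85 to 93.3 in CMPs. Calls were lost by Prg2 without GMP 3 or CMP 3 (edgeR adjusted p up to 0.0168), by Epx without CMP 3 (0.0114), by Il5ra without GMP 1, GMP 2 or CMP 4 (up to 0.0121), and by Ear6 without any 1 of GMP 1, GMP 3, GMP 4, CMP 3 or CMP 4 (up to 0.0249).

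Basophil proteases and the mast cell protease Cpa3 were high in Prss57-/- GMPs. Of 11 genes of these cells tested, 9 were called higher in GMPs and none lower (median log2 fold change 4.37). Prss34 and Mcpt8, serine proteases of basophils, led the list. Prss34 was at 1449, 1544, 979.7 and 1356 in GMPs and at 3.34, 4.19, 6.58 and 8.43 in CMPs (243-fold higher, log2 fold change 7.92, standard error 0.41, edgeR adjusted p = 2.17e-05). Mcpt8 was at 912, 951, 655 and 872 and 20.0, 71.1, 39.0 and 40.0 (20.7-fold higher, log2 fold change 4.37, standard error 0.37, edgeR adjusted p = 0.000118). In both genes GMP 3 was the lowest of the GMPs, unlike the neutrophil and eosinophil genes, and was still far above every CMP. The high-affinity IgE receptor was represented by Fcer1a, its alpha chain, at 72.1, 109, 48.6 and 80.8 in GMPs and 1.69, 17.4, 3.79 and 3.42 in CMPs, and by Ms4a2, its beta chain, at 24.0 to 52.5 and 5.76 to 8.14. CMP 2 was 4 or more times above the other CMPs in Fcer1a. The Fcer1a difference passed (edgeR adjusted p = 0.00496) but was lost without any 1 GMP library and without CMP 3 or CMP 4 (up to 0.0216), while without CMP 2 the edgeR adjusted p was 5.13e-05. Cpa3, carboxypeptidase A3 of mast cells, was 3.96-fold higher in GMPs, at 189 to 330.2 against 55.7 to 91.2 (edgeR adjusted p = 0.000498). Gzmb, granzyme B, was at 11.4 to 20.0 and 0.224 to 1.32 (edgeR adjusted p = 0.000444).

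Tpsab1, a tryptase of mast cells, had 0 reads in all 8 libraries, and Mcpt4, a chymase, was at most at 0.301. Cma1, another chymase, was at 1.60 to 7.50 in GMPs, with 1 read in all CMP libraries together. Il1rl1, the interleukin 33 receptor of mast cells and basophils, was at 2.27 to 4.41 in GMPs and at 5.54 to 6.97 in CMPs, where every CMP was above every GMP (log2 fold change -0.84, edgeR adjusted p = 0.0229, not called). The summed level of the list was 1916 to 3010 in GMPs and 97.3 to 198.2 in CMPs.

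NSP4 has been studied for the amines that mast cells store, and the genes that make and store histamine and serotonin were read for that reason. Hdc, histidine decarboxylase, which makes histamine, was at 172, 158, 149 and 145 in GMPs and at 20.1, 12.5, 25.4 and 26.5 in CMPs. All GMPs were more than 5-fold above all CMPs (7.56-fold higher, log2 fold change 2.92, standard error 0.26, edgeR adjusted p = 0.000147), and Hdc was the single call among the 5 tested genes of the list. Slc18a2, the vesicular transporter that loads amines into granules, was at 4.29 to 6.52 in GMPs and at 8.01 to 10.3 in CMPs, higher in every CMP library but short of the threshold (log2 fold change -0.64, edgeR adjusted p = 0.0308). Tph1, which makes serotonin in mast cells, had 0 reads in all 8 libraries, and Ddc, the next enzyme, was at most at 0.119. Of 13 genes of heparan sulfate and heparin synthesis and breakdown, none was called (median log2 fold change 0.39). Naglu and Gusb, lysosomal enzymes that degrade heparan sulfate, had adjusted p-values under 0.01 but less than a doubling. Naglu was at 23.4 to 26.6 in GMPs and 12.9 to 14.6 in CMPs, and Gusb at 119 to 126 and 76.6 to 78.2 (log2 fold change 0.93 and 0.72, edgeR adjusted p = 0.00131 and 0.00457).

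The phagocyte NADPH oxidase makes superoxide with a membrane heterodimer and cytosolic subunits, and 4 of its 6 subunits were called higher in GMPs. Cybb, the catalytic membrane chain, was at 16.3, 14.8, 17.0 and 19.4 in GMPs and at 1.83, 1.05, 2.26 and 2.89 in CMPs (8.62-fold higher, log2 fold change 3.11, standard error 0.30, edgeR adjusted p = 0.000219). Its partner Cyba was at 267 to 694 and 186 to 922, with overlap (log2 fold change -0.11, edgeR adjusted p = 0.862). Cyba was thus spread widely in both groups. Of the cytosolic subunits, Ncf1 was 3.92-fold higher in GMPs, at 114 to 123 against 19.5 to 42.7 (edgeR adjusted p = 0.000606), and Ncf4 2.30-fold, at 67.3 to 99.9 against 31.5 to 43.1 (edgeR adjusted p = 0.00111). Rac2, the GTPase of the complex, was at 238 to 263 and 102 to 148 (log2 fold change 1.07, edgeR adjusted p = 0.00216), and lost its call without any 1 of GMP 2, GMP 3, CMP 2, CMP 3 or CMP 4, by the fold limit without CMP 2 (log2 fold change 0.98).

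Receptors of myeloid growth factors lay on the GMP side and those of erythropoietin and FLT3 ligand on the CMP side. Of 20 cytokine receptor genes tested, 8 were called higher in GMPs and 3 lower. Csf2ra, the GM-CSF receptor alpha chain, was at 41.6, 45.4, 45.0 and 41.7 in GMPs and at 12.6, 9.69, 10.1 and 15.1 in CMPs (3.76-fold higher, log2 fold change 1.91, standard error 0.18, edgeR adjusted p = 0.000165). Csf2rb, the beta chain shared with the interleukin 3 and 5 receptors, was at 18.3 to 25.1 and 3.29 to 7.77, but shares sequence with its copy Csf2rb2. Csf3r, the G-CSF receptor, was at 29.0 to 35.9 and 7.03 to 15.2 (log2 fold change 1.46, edgeR adjusted p = 0.00269), a call lost without any 1 of GMP 1, GMP 2, GMP 3, CMP 3 or CMP 4 (up to 0.0121). Csf1r, the M-CSF receptor, was at 46.8 to 61.0 and 12.9 to 32.5, without overlap but short of the threshold (log2 fold change 1.09, edgeR adjusted p = 0.0224). On the CMP side, Epor, the erythropoietin receptor, was at 2.15, 1.17, 1.07 and 1.97 in GMPs and at 26.1, 35.7, 28.5 and 33.0 in CMPs (18.8-fold lower in GMPs, log2 fold change -4.23, standard error 0.27, edgeR adjusted p = 4.05e-05). Flt3, a receptor of early and lymphoid-primed progenitors, was at 5.88, 7.07, 3.92 and 4.07 and 46.0, 22.0, 33.3 and 31.4 (6.18-fold lower, log2 fold change -2.63, standard error 0.29, edgeR adjusted p = 0.000367). No GMP library reached the lowest CMP library in either of these receptors. Among chemoattractant receptors and adhesion molecules, 2 of 13 were called, both higher in GMPs, against 4.04% of all genes tested. Ccr1, a chemokine receptor, was at 6.31 to 12.1 and 0.654 to 2.17 (edgeR adjusted p = 0.000999). Itgam, the CD11b chain that the lineage stain also covers, was at 1.53 to 2.06 and 0.239 to 0.664, and lost its call without any 1 GMP library or CMP 3 (up to 0.0163 from edgeR).

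Of 15 transcription factors of granulocytes and monocytes, 7 were called higher in GMPs and none lower (median log2 fold change 1.02). All C/EBP genes of the list were among them. Cebpe, which acts in the formation of secondary granules, differed most in this family, at 70.3, 71.7, 92.4 and 109.9 in GMPs and 3.33, 4.31, 12.2 and 16.2 in CMPs (9.77-fold higher, log2 fold change 3.29, standard error 0.51, edgeR adjusted p = 0.00212). Cebpa, needed to form GMPs, was at 169.7, 158, 175 and 156 and 64.4, 33.1, 58.4 and 55.5 (3.20-fold higher, log2 fold change 1.68, standard error 0.23, edgeR adjusted p = 0.000968). The GMP libraries were close to each other in Cebpa, whereas CMP 2 was lowest among the CMPs. Cebpb was at 50.4 to 84.0 and 7.25 to 16.3, and Cebpd at 13.7 to 21.5 and 4.68 to 7.10 (edgeR adjusted p = 0.000821 and 0.00123). Gfi1, a repressor of transcription that acts on the granulocyte side, was at 37.0, 35.8, 35.6 and 33.5 in GMPs and 7.09, 5.62, 7.31 and 7.87 in CMPs (5.23-fold higher, log2 fold change 2.39, standard error 0.16, edgeR adjusted p = 4.29e-05). Spi1, the PU.1 gene, was 2.38-fold higher, at 135 to 165 against 45.1 to 71.4 (edgeR adjusted p = 0.0021). Klf4, a factor of monocytes, was at 3.60 to 8.19 and 0.400 to 0.723 (edgeR adjusted p = 0.000222). Irf8, which acts on the monocyte side, was at 125, 131, 161 and 150.3 in GMPs and 94.9, 55.3, 82.2 and 79.7 in CMPs, without overlap but not called (log2 fold change 0.90, standard error 0.21, edgeR adjusted p = 0.014). Myc and Myb, factors of dividing progenitors, were at 130.3 to 152 and 160.4 to 219.9 in GMPs and at 84.2 to 173 and 86.1 to 167 in CMPs, with edgeR adjusted p of 0.632 and 0.0872.

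Of 16 monocyte and dendritic cell genes tested, 3 were called higher in GMPs and none lower (median log2 fold change 0.50). Over all genes tested, 4.04% were called higher and 4.38% lower. Ly6c2, a surface protein of monocytes with near-identical relatives, was at 900.5 to 1516 in GMPs and 106 to 216 in CMPs (log2 fold change 2.91, edgeR adjusted p = 0.000294). F13a1, a transglutaminase of monocytes, was at 188 to 219.8 and 66.2 to 111, and Fgl2 at 35.7 to 41.3 and 12.1 to 22.0 (edgeR adjusted p = 0.00207 and 0.00282). F13a1 lost its call without GMP 2, GMP 3 or CMP 4 and Fgl2 without any 1 GMP library or CMP 3 (up to 0.0121 and 0.0114 from edgeR). H2-Aa, an MHC class II chain of dendritic cells, was at 5.48 to 9.82 in GMPs and 5.48 to 26.7 in CMPs (log2 fold change -1.22, edgeR adjusted p = 0.0753).

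Transcription factors of erythroid cells and megakaryocytes stood on the CMP side. Of 15 tested, 7 were called lower in GMPs and none higher (median log2 fold change -0.91). Klf1, which activates globin genes, was at 7.08, 6.08, 4.91 and 8.32 in GMPs and at 82.4, 82.4, 71.2 and 84.3 in CMPs (11.8-fold lower in GMPs, log2 fold change -3.56, standard error 0.19, edgeR adjusted p = 2.20e-05). Gata1 was at 10.8, 10.5, 7.29 and 10.9 and 75.7, 93.8, 65.2 and 73.9 (7.55-fold lower, log2 fold change -2.92, standard error 0.18, edgeR adjusted p = 3.88e-05). Gfi1b, a repressor of transcription in the same cells, was at 6.66, 5.86, 4.83 and 6.07 and 69.5, 46.9, 52.7 and 59.6 (9.49-fold lower, log2 fold change -3.25, standard error 0.19, edgeR adjusted p = 3.02e-05). Within each group the libraries differed by less than 2-fold in each of these factors, and the gap between the groups was larger. Zfpm1, the FOG1 gene, was at 7.31 to 8.69 and 39.0 to 104, and Tal1 at 9.89 to 13.6 and 43.0 to 48.3 (edgeR adjusted p = 0.00017 and 9.75e-05). Meis1, a partner of HOX proteins, was at 1.78 to 2.49 in GMPs and 5.41 to 10.4 in CMPs (edgeR adjusted p = 0.000556). Gata2, the GATA factor of stem cells and mast cells, was at 46.1, 38.01, 33.0 and 32.1 in GMPs and 56.8, 22.2, 40.9 and 38.01 in CMPs, with overlap (log2 fold change -0.05, edgeR adjusted p = 0.908). Lmo2, an adaptor of the GATA complex, was at 136 to 146 and 214 to 264, with an edgeR adjusted p of 0.00834 but less than a doubling.

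Genes of erythroid cells followed, with 15 of 21 called lower in GMPs and none higher (median log2 fold change -2.82). Car1 and Car2 encode carbonic anhydrases of erythroid cells. Car1 was at 28.1, 18.4, 14.2 and 27.1 in GMPs and 594, 868, 483 and 573 in CMPs (27.7-fold lower in GMPs, log2 fold change -4.79, standard error 0.30, edgeR adjusted p = 3.88e-05), and Car2 at 23.0 to 37.9 and 378 to 743 (14.8-fold lower, edgeR adjusted p = 6.41e-05). CMP 2 was the highest library in both, and no GMP library came near the CMPs. Aqp1, a water channel of the erythrocyte membrane, was at 11.4, 7.63, 4.72 and 10.7 and 249, 293, 204 and 226 (log2 fold change -4.77, standard error 0.31, edgeR adjusted p = 4.05e-05). Blvrb, a flavin reductase, was at 12.8 to 23.5 in GMPs and 101, 460.4, 150.5 and 202 in CMPs, with CMP 2 above the others (log2 fold change -3.77, and -3.21 without CMP 2). Tspo2, a membrane protein of late erythroid cells, was at 1.01 to 3.05 and 39.5 to 109.6, and Rhd, the Rhesus antigen, at 2.07 to 6.61 and 38.8 to 109.9 (edgeR adjusted p = 0.000163 and 0.000524). A gene of mature erythrocytes was low in both groups: Hbb-bs, a beta-globin chain that shares reads with Hbb-bt, was at 1.32 to 3.88 in GMPs and 5.29 to 27.2 in CMPs (log2 fold change -2.26, edgeR adjusted p = 0.0165). Tfrc, the transferrin receptor of all dividing cells, was at 12.4 to 23.8 and 19.7 to 30.2 and was not called (edgeR adjusted p = 0.261). Slc25a37, mitoferrin, was at 8.75 to 11.3 in GMPs and 4.69 to 6.99 in CMPs, the other way from the list, and was not called (edgeR adjusted p = 0.0132).

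Heme synthesis enzymes had mostly negative log2 fold changes (median -0.91), and Alas1 went the other way. Alas1, the 5-aminolevulinate synthase of most tissues, was at 201, 207, 229 and 229.8 in GMPs and at 39.5, 26.1, 47.8 and 57.7 in CMPs (5.20-fold higher in GMPs, log2 fold change 2.38, standard error 0.26, edgeR adjusted p = 0.000342). Its erythroid counterpart Alas2 was at or under 0.255 in every library. Alad, the next enzyme, was at 31.9 to 47.9 in GMPs and 83.5 to 183 in CMPs (3.00-fold lower, log2 fold change -1.58, standard error 0.26, edgeR adjusted p = 0.00256), and lost its call without GMP 1, GMP 2 or GMP 3 (up to 0.0128). The other 7 of the 9 genes of the list were not called, and all had negative log2 fold changes, from -1.44 in Alas2 to -0.32 in Ppox, with Cpox at -0.91 (edgeR adjusted p = 0.00141).

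Megakaryocyte and platelet genes were the other large group on the CMP side, with 14 of 18 called lower in GMPs and none higher (median log2 fold change -2.81). Pf4, platelet factor 4, was at 25.1, 42.1, 9.89 and 22.3 in GMPs and at 661, 2561, 846 and 986 in CMPs. It had the highest level of the list, was highest in CMP 2 and lowest in GMP 3, and did not overlap between the groups (48.8-fold lower in GMPs, log2 fold change -5.61, standard error 0.60, edgeR adjusted p = 0.00032). F2r, the thrombin receptor, was at 1.52, 1.77, 0.962 and 1.09 and 50.2, 31.9, 38.2 and 35.4 (28.4-fold lower, log2 fold change -4.83, standard error 0.27, edgeR adjusted p = 3.02e-05). Gp5, a glycoprotein of the von Willebrand factor receptor, was at 3.08, 3.06, 1.56 and 2.04 and 48.0, 44.8, 43.3 and 37.8 (17.3-fold lower, log2 fold change -4.11, standard error 0.25, edgeR adjusted p = 3.88e-05). In F2r and Gp5, CMP 1 and not CMP 2 was highest. Gp1bb, of the same receptor, was at 0.923 to 2.06 and 18.6 to 35.6, and its ligand Vwf at 0.272 to 1.07 and 8.28 to 18.0 (edgeR adjusted p = 8.30e-05 and 0.000696). Treml1, a receptor of platelet granules, was at 1.24 to 3.41 in GMPs and 42.9, 98.6, 48.9 and 42.5 in CMPs, with CMP 2 about 2-fold above the others. Itga2b, CD41, was at 20.0 to 34.5 and 85.7 to 127 (3.65-fold lower, edgeR adjusted p = 0.000831). Cd9, a tetraspanin, was at 41.5 to 63.9 and 131 to 579, a call lost without any 1 GMP library (up to 0.0176 from edgeR). Ppbp, the precursor of platelet basic protein, was at 5.98 to 15.3 and 14.0 to 40.9 and was not called (edgeR adjusted p = 0.027). The summed level of the list was 98.04 to 173.8 in GMPs and 1244 to 3676 in CMPs, highest in CMP 2.

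Of 15 stem cell and Hox genes, 7 were called lower in GMPs and none higher (median log2 fold change -1.50). Mycn, a MYC relative of early progenitors, was at 0.0946, 0.101, 0.151 and 0.120 in GMPs and 5.75, 2.46, 5.29 and 4.18 in CMPs (36.9-fold lower in GMPs, log2 fold change -5.21, standard error 0.36, edgeR adjusted p = 5.18e-05). Slamf1, CD150 of stem cells, was at 0.115 to 0.222 and 1.96 to 3.52, and Hlf, a stem cell factor, at 1.77 to 2.64 and 4.29 to 6.73 (edgeR adjusted p = 7.82e-05 and 0.00171), with the call for Hlf lost without GMP 3 (0.0101). Of the Hoxa genes, Hoxa10 was at 0.132, 0.145, 0.148 and 0.0825 in GMPs and 1.45, 2.88, 1.41 and 2.55 in CMPs (log2 fold change -3.95, standard error 0.34, edgeR adjusted p = 0.000128), whereas Hoxa9 was at 6.75, 5.76, 5.35 and 5.05 and 6.60, 4.80, 6.53 and 6.23 (log2 fold change -0.04, edgeR adjusted p = 0.879). Of 10 lymphoid genes tested, 1 was called, lower in GMPs, against 4.38% of all genes tested. This gene was Dntt, the terminal transferase of lymphoid progenitors. It had 27, 18, 3 and 0 reads in the GMP libraries and 1544, 1149, 2717 and 1656 reads in the CMP libraries (log2 fold change -7.28, standard error 0.68, edgeR adjusted p = 0.000179).

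Of 18 glycolysis genes, 5 were called higher and 1 lower, where 4.04% of all genes tested were called higher and 4.38% lower. Hk3, the hexokinase of myeloid cells, was at 179, 184, 213 and 195 in GMPs and 61.2, 36.7, 60.1 and 65.6 in CMPs (3.54-fold higher, log2 fold change 1.83, standard error 0.22, edgeR adjusted p = 0.000558), and Pkm, pyruvate kinase, at 148 to 162 and 53.8 to 71.4 (edgeR adjusted p = 0.000426). Slc2a3, a glucose transporter, was at 6.06 to 8.85 and 12.7 to 19.0 (log2 fold change -1.06, edgeR adjusted p = 0.00324), a call lost without any 1 of GMP 2, GMP 3, GMP 4, CMP 1 or CMP 4 (up to 0.0177). Gapdh was at or under 0.247 in every library, and only uniquely aligned reads were counted for this gene of many pseudogene copies. Of 24 genes of DNA replication and mitosis, Plk1, a mitotic kinase, was called higher at the edge of the threshold (log2 fold change 1.03, edgeR adjusted p = 0.00996), and it lost its call without any 1 library but CMP 1 (up to 0.0413). Mki67, a gene of cycling cells, was at 11.2 to 22.2 and 3.44 to 17.7 (edgeR adjusted p = 0.121). None of the 18 cholesterol genes (median log2 fold change -0.06) and none of the 19 genes of protein folding and secretion in the endoplasmic reticulum (median 0.50) was called. Hyou1, a chaperone, was the nearest of these by size, at 103 to 139.9 and 27.3 to 63.6 (log2 fold change 1.22, edgeR adjusted p = 0.014), and passed without CMP 2 (0.00233 from edgeR). Of 15 interferon-stimulated genes, Irf7, Usp18 and Xaf1 were called lower in GMPs, Irf7 at 1.92 to 3.44 and 7.32 to 8.28 (log2 fold change -1.57, edgeR adjusted p = 0.000714). Usp18 and Xaf1 lost their calls without any 1 of several libraries, GMP 1, GMP 2, GMP 4, CMP 3 and CMP 4 in both and GMP 3 in Usp18 (up to 0.0285 and 0.0284). Of 10 immediate early and heat shock genes, Egr1 was called lower, at 0.0983 to 0.156 and 0.882 to 1.95 (edgeR adjusted p = 0.000227).

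Cytosolic ribosomal protein genes and replication-dependent histone genes had lower medians in GMPs without a call. Both medians depended on CMP 2 and on the length slope. Of 81 ribosomal protein genes tested, none was called (median log2 fold change -1.04). Their summed level was 14716 to 31249 in GMPs and 18948 to 93533 in CMPs, with CMP 2 highest and the groups overlapping. The median was -0.56 without CMP 2 and -0.11 with the length slope of each library as a covariate. Of 35 tested histone genes, none was called (median -1.27, -0.36 without CMP 2 and -0.25 with the length slope). Without CMP 1, which leaves CMP 2 among 3 CMPs, 10 ribosomal protein genes were called lower. In wild type the median was -0.61 for ribosomal protein genes, with 3 called lower, and -0.09 for histone genes, with 1 called lower. Ribosomal protein genes held 3.06% to 5.08% of reads in wild-type CMPs and 2.21% to 3.66% in wild-type GMPs. CMP 2 was singled out by its ribosomal protein share, and the part of library differences in these medians was not tested.

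The neighbors of the deleted locus on chromosome 10 were also read. Of 7 annotated genes that start within 50 kb, 4 were tested. Palm, a membrane protein anchored by a lipid, was at 31.6, 30.8, 29.0 and 24.9 in GMPs and 9.68, 5.01, 7.35 and 7.46 in CMPs (4.05-fold higher in GMPs, log2 fold change 2.02, standard error 0.22, edgeR adjusted p = 0.000333), and its log2 fold change in wild type was 1.90. Fstl3, a follistatin relative, was at 0.707 to 0.994 and 0.291 to 0.515 (log2 fold change 1.21, edgeR adjusted p = 0.0232, not called). Polrmt and Rnf126 were at 12.6 to 14.5 and 46.4 to 51.3 in GMPs and at 9.83 to 14.5 and 37.9 to 49.7 in CMPs, and neither was called.

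The differences were then set beside those of wild-type GMPs and CMPs, which share no library with them. In wild type, edgeR called 940 genes higher (6.28%) and 978 lower (6.53%) of 14967. Of the 604 genes higher in Prss57-/- GMPs, 567 were also called in wild type, which is 93.9% of the Prss57-/- and 60.3% of the wild-type calls. Of the 655 lower genes, 593 were shared (90.5% and 60.6%). All 597 and 647 genes of these calls that were tested in wild type had the same sign there, and none was called in the opposite direction. Over 14647 genes tested in both, the log2 fold changes had a Pearson's r of 0.92 and a Spearman's rho of 0.91, a description across genes that share libraries. The spread between libraries was larger in Prss57-/-, with a biological coefficient of variation of 0.322 against 0.232 in wild type, and 0.251 without CMP 2.

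**Figure D5:**
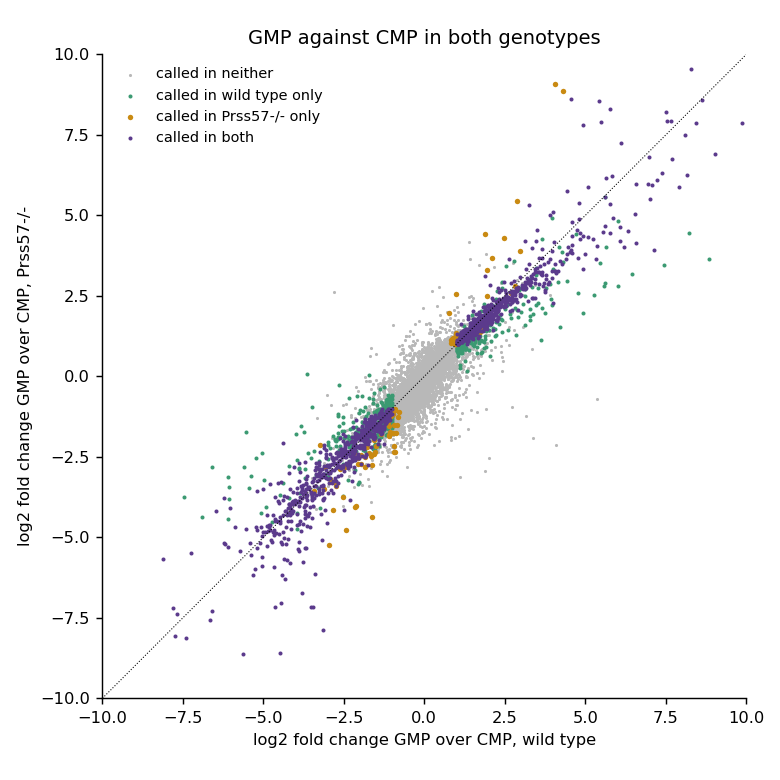
Each point is a gene, with its log2 fold change between the progenitors in wild type on the x axis and in Prss57-/- on the y axis, colored by where it was called, and the dotted line marks equal values. The 1160 genes called in both genotypes have the same sign in both, and some lie far from the line, such as Btc at -7.15 in Prss57-/- and -3.53 in wild type. The 84 called in Prss57-/- alone and the 720 called in wild type alone have colors of their own.

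A call in 1 genotype and not in the other does not show that the genotypes differ, and the difference itself (the log2 fold change of GMPs in Prss57-/- minus that in wild type) was tested as an interaction over the 16 libraries. None of 15900 genes was called (0.0% of those tested), and the smallest adjusted p from edgeR was 0.9999. The unadjusted p from edgeR was under 0.05 in 169 genes (1.06%), a smaller share than that level gives where no gene differs. Limma voom gave 135 and DESeq2 255 such genes, and neither called a gene. The median width of the 95% interval of the difference was 1.58 on the log2 scale over all genes and 1.67 over the 1259 called genes, of which 580 had an interval within 1 in both directions. In the others the interval reached beyond a 2-fold difference in at least 1 direction. For Mpo the difference was -0.23 (-0.81 to 0.35), for Hdc -0.23 (-0.90 to 0.45) and for Cpa3 0.27 (-0.34 to 0.89). On the CMP side it was 0.13 (-0.31 to 0.57) for Gata1, -0.01 (-0.73 to 0.70) for Epor and -0.58 (-1.92 to 0.77) for Pf4. For the late neutrophil gene Camp it was -2.13 (-4.33 to 0.07) and for Elane -0.82 (-2.05 to 0.41), intervals that hold both no difference and a difference of more than 2-fold. The 10 primary granule genes had a median difference of -0.40 and the 15 late neutrophil genes of -1.16, with 0 and 1 of them at an unadjusted p under 0.05, against -0.03 over all genes. A negative median was not particular to these lists. It was -1.20 for 37 histone genes, 4 of them at an unadjusted edgeR p under 0.05, and -0.44 for 81 ribosomal protein genes, with 0 of them. These 2 lists depended on CMP 2. Without it their GMP over CMP medians in Prss57-/- were -0.36 and -0.56, against -0.09 and -0.61 in wild type. For the late neutrophil and primary granule lists they were 5.27 and 1.68 without CMP 2, against 7.02 and 1.92 in wild type.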

How the data were processed

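Reads were aligned to GRCm38 (HTSeqGenie, GSNAP) and the authors deposited, for each library, counts of uniquely aligned reads within exons per gene, and normalized RPKM, the count divided by gene length and a size factor. The strand setting of the counting is not given in the sources used here. Reads of near-identical genes (Ear, globin, Ly6c, Csf2rb, Gapdh and its pseudogenes) are uncertain.

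Counts were tested in R 4.3.3 with edgeR 4.0.16 (TMM, filterByExpr, robust quasi-likelihood test, Benjamini-Hochberg adjustment), and called with the adjusted p below 0.01 and a change of 2-fold or more. The interaction of cell type and genotype was fitted to 16 libraries, at an adjusted p under 0.01. Levels are RPKM. Alternatives used limma 3.58.1, DESeq2 1.42.0, other scalings, filters and thresholds, a replicate block and each library left out. The scripts were tested on simulated data. The 24 gene lists, members and tests were chosen with earlier results of these data known. Genes were named as the 15 largest changes in each direction among called protein-coding genes with a mean of at least 20 RPKM and no overlap. Predicted genes (Gm and Rik names) were left out of this ranking. Other genes were named as list members or as neighbors of Prss57 within 50 kb. The intervals of the Prss57 read ratios and the floors cover counting error only. The intervals of the interaction also include the spread between libraries. Of the 52636 genes listed, 52403 were matched to GENCODE M21. Promoters are RefSeq's on GRCm38.p6. BMMC libraries were not used here, and a few genes of the lists and of the largest changes are not reported here.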

Additional observations from a re-analysis of the deposited data

Results flagged for a closer look

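In 304 tests of a single library against the other 3 of its group, over the named genes and 5 measures of each library, 24 values lay apart by Dixon's test. Its chance rate of about 1 in 20 assumes normally distributed values, and the levels were not log-transformed. In Chil3, Itgb2l and Cma1 only 1 CMP library held a read, so that the rate does not hold there. Of the 24 values, 6 lay in GMP 4 and 6 in CMP 2, which also had the highest share of reads on ribosomal protein genes.

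GMP 4 was the highest GMP library for 3 late neutrophil genes, S100a8 (2054 normalized RPKM), S100a9 (2064) and Camp (655), for the eosinophil ribonucleases Ear1 (26.6) and Ear2 (29.9), and for Blvrb (23.5). CMP 4 was the highest CMP library for Ngp (1.79), Retnlg (1.13) and Ear2 (0.923). In GMP 3, Gata1 was low (7.29) and Hyou1 was high (139.9).

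CMP 2 was the highest CMP library for Fcer1a (17.4), Treml1 (98.6), Ctla2a (263), Wfdc17 (129) and Ppox (21.2), and the lowest for Cebpb (7.25). CMP 1 was the highest for Mfsd2b (71.0) and the lowest for Dntt (11.1). CMP 3 was the lowest for Klf1 (71.2) and Mmp9 (0.0385), and it was the highest for Chil3 (0.119), Itgb2l (0.0368) and Cma1 (0.0142), where it was the single CMP library with a read.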

How the results depend on the processing

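No gene was called in the interaction test under any alternative, with a smallest adjusted p of 0.778 (without CMP 1) among the edgeR, limma voom and DESeq2 fits. The counts between Prss57-/- GMPs and CMPs moved more. They were 1588 higher and 1634 lower at an adjusted p under 0.05 without a fold limit, 205 and 282 when tested against a fold of 2 (glmTreat), and 1106 and 1427 with limma voom and quality weights (chosen after seeing the data), and the lower genes numbered 1259 with DESeq2 and 1047 with all 16 libraries in 1 fit. Over the fits without 1 library they ran from 377 to 1125 higher and from 408 to 1141 lower. Why the counts rise most without CMP 1 was not tested. Of the 146 named genes, none of the 100 called ones changed direction under any of 21 alternatives, 66 kept their call in all, and 77 kept it without each library in turn.

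The direction of 7 named genes without a call changed. With limma voom the log2 fold change was 0.00884 for Kit and 0.0257 for Gata2. With each library's length slope as a covariate, chosen after seeing the data, it was 0.84 for Cyba, -0.14 for Myc and -0.0869 for Gapdh. Without 1 library it ran from -0.21 to 0.15 for Kit, -0.42 to 0.35 for Cyba, -0.0284 to 0.30 for Myc, -0.25 to 0.19 for Gata2, -0.19 to 0.47 for Lyz2, -0.14 to 0.0253 for Hoxa9 and -0.0256 to 0.62 for Gapdh.

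Deviations of the GMP and CMP libraries of the same number had correlations of 0.75, -0.01, 0.19 and 0.25 for numbers 1 to 4. Not every library correlated best with its own number. GMP 1 and CMP 1 had the highest length slopes of their groups (0.23 and 0.18). GMP 4 and CMP 2 had the lowest (-0.04 and -0.41), and their correlation was 0.67. The correlations cannot tell libraries of 1 mouse from libraries of similar slope, so the pairing was not decided. With a replicate block 666 genes were higher and 645 lower, and the log2 fold change was 0.00334 for Kit, 0.0224 for Cyba and 0.0190 for Gata2. Genes with 0 reads in all 8 libraries, such as Tpsab1 and Tph1, were not detectable at this depth.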
